A study of Homo sapiens with 47 samples.

Results

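The 10 genes examined lie beside sites targeted by CRISPR activators in Ishikawa cells, but the sites were named for other genes. They were selected by position, as genes that flank the targeted sites of MMP17, CISH, FHL2 and HES2, and each ChIP-seq peak within 2 kb of any of their annotated transcription starts was collected. The set is ESPN, TNFRSF25 and PLEKHG5 at the HES2 locus, SFSWAP and ULK1 at the MMP17 locus, HEMK1, C3orf18 and MAPKAPK3 at the CISH locus, and C2orf49 and NCK2 at the FHL2 locus. These 10 genes, of 64449 in the annotation, have 102 transcription starts, which form 30 groups of starts whose 2 kb windows overlap. In all, 957 of the 959683 peaks in 47 libraries fell in these windows, from 1 to 35 peaks per HA library, 1 to 31 per H3K27ac library and 11 to 42 per RNA polymerase II (RNAPII) library.

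Ishikawa is a human endometrial adenocarcinoma line, and every library came from cells in hormone-depleted medium that were given plasmids that encode a dCas9 fusion and gRNAs. dCas9 is a Cas9 that binds DNA at the gRNA target without cutting it. It was fused either to repeats of the viral activation domain VP16, dCas9-VP16(10x), or to the acetyltransferase core of p300, dCas9-p300(core). For H3K27ac and RNAPII there were 2 libraries for each construct and each of 5 gRNA pools. Pools 1, 2 and 3 each targeted 1 estrogen receptor binding site (ERBS) per locus, the Adjacent pool targeted nearby sites without estrogen receptor binding at MMP17, CISH and FHL2 only, and the IL1RN pool, aimed at a promoter elsewhere in the genome, was the non-targeted control. For HA, the tag on dCas9, there were 7 libraries. These were dCas9-VP16(10x) with all ERBS gRNAs (2), Adjacent gRNAs (2) or IL1RN gRNAs (1), and dCas9-p300(core) with ERBS gRNAs (2). The title of the IL1RN library names no construct, which was taken from its construct label. The name of its column in the authors' signal table gives the same construct. The cells were transfected and drug-selected in bulk, every library comes from 1 cell line, and dCas9-p300(core) has no HA control of its own. Nothing in the labels says whether replicates were separate cultures, so p-values measure the spread between libraries, which may be technical.

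The depth of the peak lists differed widely. HA lists held 141 to 30740 peaks, H3K27ac lists 1805 to 32052 and RNAPII lists 16041 to 40757, and the H3K27ac lists of dCas9-p300(core) were the shallowest (median 6143 against 25025 for dCas9-VP16(10x)). By label, IL1RN gRNAs were present as well in Adjacent replicate 1 of H3K27ac with dCas9-VP16(10x), and the peaks of dCas9-VP16(10x) Pool 1 replicate 2 carry the letter of the other construct in their names. The epithelial and Muellerian genes EPCAM, KRT8, KRT18, CDH1, PAX8, MUC1 and ESR1 had an RNAPII peak in 20 of 20 libraries. H3K27ac peaks were found in 20 of 20 at KRT8, KRT18, PAX8 and ESR1, but in 17 at EPCAM, 12 at MUC1 and 11 at CDH1. PTPRC, CD3E, ALB and MYH7, genes of other cell types, had no H3K27ac or RNAPII peak in any.

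H3K27ac marks active promoters and enhancers, and p300 is an enzyme that deposits it. RNAPII ChIP-seq signal at a start reports polymerase that is initiating or paused there. A genomic neighbour of a targeted enhancer can have its own promoter within reach of the same activator, which is the question these genes address. ESPN encodes espin, an actin-bundling protein of hair cell stereocilia and microvilli. TNFRSF25 encodes death receptor 3 of the tumor necrosis factor receptor family, and PLEKHG5 a guanine nucleotide exchange factor for RhoA. SFSWAP encodes a splicing regulator and ULK1 the kinase that initiates autophagy. HEMK1 encodes a glutamine methyltransferase that acts on translation release factors, C3orf18 is an uncharacterized reading frame, and MAPKAPK3 encodes a kinase downstream of p38. C2orf49 encodes ashwin, a component of a tRNA ligase complex, and NCK2 an adaptor that links receptor tyrosine kinases to actin.

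At 5 of the 18 targeted sites, the gRNAs or the 2000-bp region around them came within 2 kb of a start of 1 of these genes, so that some of the neighbours were themselves close to the activator. All coordinates are on hg19. HES2-3 lies on chromosome 1 inside ESPN, and its 4 gRNAs (6507297 to 6507508) sit 19 to 86 bp from ESPN starts, 2 in an intron and 2 in an untranslated part of an exon. HES2-2 also lies inside ESPN, and its 4 gRNAs (6497141 to 6497418) sit 16 to 208 bp from the start of a noncoding ESPN transcript, 2 in an intron and 2 in an exon of that transcript. The HES2-1 gRNAs are in an intron of HES2, 1159 to 1392 bp upstream of the first ESPN start at 6484836, which is separated from the first HES2 start at 6484730 by less than 2 kb, so that peaks there cannot be given to 1 of the 2 genes. The target sequences of HES2-3 and HES2-2 are shown first because they fall on ESPN starts, in lower case with the PAM, the bases next to the target that Cas9 needs, in capitals.
HES2-3, base 6507297, minus strand: cagcacgcacacggccgagaTGG
HES2-3, base 6507340, plus strand: gggcccggacgctccacaaaGGG
HES2-3, base 6507419, plus strand: ggtcgtggcgtccgaacctcCGG
HES2-3, base 6507486, minus strand: tgcaggaaatgcgacaccgcAGG
HES2-2, base 6497141, plus strand: tggtggaatactaacgagaaTGG
HES2-2, base 6497297, plus strand: tcagaccttctccggctggcTGG
HES2-2, base 6497365, plus strand: agcagagctcaccgcaggtcTGG
HES2-2, base 6497396, plus strand: ccagctgtgcagaccgccgtGGG

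The other sites belong to the Adjacent pool. MMP17-A lies on chromosome 12 in an intron of SFSWAP, and its gRNAs sit 1134 to 1467 bp before the last annotated SFSWAP start at 132280663, far from the first SFSWAP start at 132195626. CISH-A lies on chromosome 3 in an exon of a noncoding CISH transcript, 1597 to 2141 bp before the first MAPKAPK3 start at 50648951. The CISH starts at 50649192 to 50649205, on the other strand, fall in the same window, so that a peak there counts for both genes. Their targets are shown because the signal at these 2 sites is what differed between pools below.
MMP17-A, base 132279185, plus strand: gggaacgctgagggtggagaAGG
MMP17-A, base 132279293, plus strand: tgcgcacttgccaagctcagCGG
MMP17-A, base 132279434, minus strand: actaatccttaactgcaaacTGG
MMP17-A, base 132279518, plus strand: tttggacacatgtcacatgcTGG
CISH-A, base 50646799, minus strand: caagatcgtagagcctggtaGGG
CISH-A, base 50646999, plus strand: gatactagggcttcctccttGGG
CISH-A, base 50647165, minus strand: agccagtctggttctccttgAGG
CISH-A, base 50647343, plus strand: cagcgccagtattgcttgtgAGG

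Each of these 20 gRNA targets, counting the 4 of HES2-1, matched the genome once. The remaining neighbours were farther away. TNFRSF25 and PLEKHG5 lie 14982 and 21538 bp from the centre of HES2-3, HEMK1 17277 bp from CISH-B, C3orf18 23335 bp from CISH-3, ULK1 33610 bp from MMP17-3, C2orf49 52976 bp from FHL2-B and NCK2 221979 bp from FHL2-3. The HEMK1 and C3orf18 starts at these distances had no peak in any library. All peaks of the 2 genes were at their shared promoter, with starts 24831 bp (HEMK1) and 23374 bp (C3orf18) from the centre of CISH-B.

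With dCas9-VP16(10x), HA enrichment within 2 kb of starts of ESPN, SFSWAP and MAPKAPK3 was higher in lists with gRNAs there than in the other lists. The values are the fold enrichment over background that MACS2 gave to the highest peak in each window. At the first ESPN starts, dCas9-VP16(10x) with ERBS gRNAs reached 50.8 and 104, against 6.92 and 22.1 with Adjacent gRNAs and 10.3 with IL1RN gRNAs. At the ESPN starts beside HES2-3 it reached 24.2 and 165 with ERBS gRNAs, against 7.37 and 20.2 with Adjacent gRNAs and 12.4 with IL1RN gRNAs. At the ESPN starts beside HES2-2 it reached 23.8 and 98.7, while 1 of the 2 Adjacent lists gave 12 and the IL1RN list had no peak. All 3 groups of ESPN starts were thus highest in both dCas9-VP16(10x) ERBS lists. This did not hold for dCas9-p300(core) with ERBS gRNAs, whose lists held only 154 and 141 peaks. They gave 9.46 and 17.3 at the first ESPN starts, 18.7 in 1 list beside HES2-3, no peak beside HES2-2 and none at any other gene of the set. These enrichments lay within or below those of the Adjacent lists. The authors' normalized HA signal, measured with or without a peak, differed from this. At HES2-1 dCas9-p300(core) gave 15 and 27.5, against 3.15 to 4.1 in the Adjacent and IL1RN libraries of dCas9-VP16(10x). At HES2-3 it gave 6.05 and 15.2, against 1.85 to 2.78 in the same libraries. At HES2-2 it gave 0.789 and 3.04, against 0.431 to 0.806, so only replicate 2 lay above them there. These dCas9-p300(core) signals rest on few reads, by the steps of the signal table. They were 57 and 154 at HES2-1, 23 and 85 at HES2-3 and 3 and 17 at HES2-2. The Adjacent and IL1RN libraries of dCas9-VP16(10x) had 133 to 387 at HES2-1.

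At the SFSWAP start beside MMP17-A, dCas9-VP16(10x) gave 28.7 and 68.3 with Adjacent gRNAs, and 9.39 in 1 of the 2 ERBS lists. No peak was listed there with IL1RN gRNAs. The 3 HA summits lay at -1378, -1350 and 390 bp from this start, and the gRNAs 1134 to 1467 bp before it. In the window of the first MAPKAPK3 starts, dCas9-VP16(10x) gave 28.2 and 45.9 with Adjacent gRNAs. It gave 8.76 and 16.1 with ERBS gRNAs and 7.84 with IL1RN gRNAs. Measured from the CISH start in this window, the Adjacent summits lay at 1878 and 1825 bp, toward CISH-A. The ERBS and IL1RN summits lay at -362, -396 and -165 bp, so these were different peaks. In these windows too, both Adjacent lists lay above the other 3 lists labelled dCas9-VP16(10x). With 2 lists against 3, no exact test can reach 0.05, so none was made. The ERBS lists were also unequal in depth (6184 and 30740 peaks), and in the authors' signal table the 2 ERBS columns differed by less than the sampling noise over 11 regions without ERBS gRNAs (chi-square test p = 0.99999). At the HES2 regions the same 2 columns were far apart, with 70.7 and 21.2 at HES2-1, 7.6 and 4.51 at HES2-2 and 19.1 and 8.42 at HES2-3. The name of the column with the higher values lacks the tag for duplicate removal that the other carries. Whether this accounts for the gap was not tested. The columns could not be told to be 1 library or 2, and they were not used as replicates in a test.

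Other starts of the set had an HA peak in at most 5 of the 7 lists. Over all 10 genes, the 2 deepest lists held 35 and 22 peaks, and the other dCas9-VP16(10x) lists 6 to 9. The first ULK1 start had a peak in 3 lists (8.97 to 27.1). The shared HEMK1 and C3orf18 promoter had peaks of 4.4 and 21.7 with ERBS gRNAs, 7.51 and 18.1 with Adjacent gRNAs and 11.1 with IL1RN gRNAs, a spread that overlapped between pools. PLEKHG5 (7.52 to 26.6) and the second group of MAPKAPK3 starts were alike in this, and TNFRSF25, C2orf49 and NCK2 reached at most 11.4, 5.93 and 8.02.

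**Figure D1:**
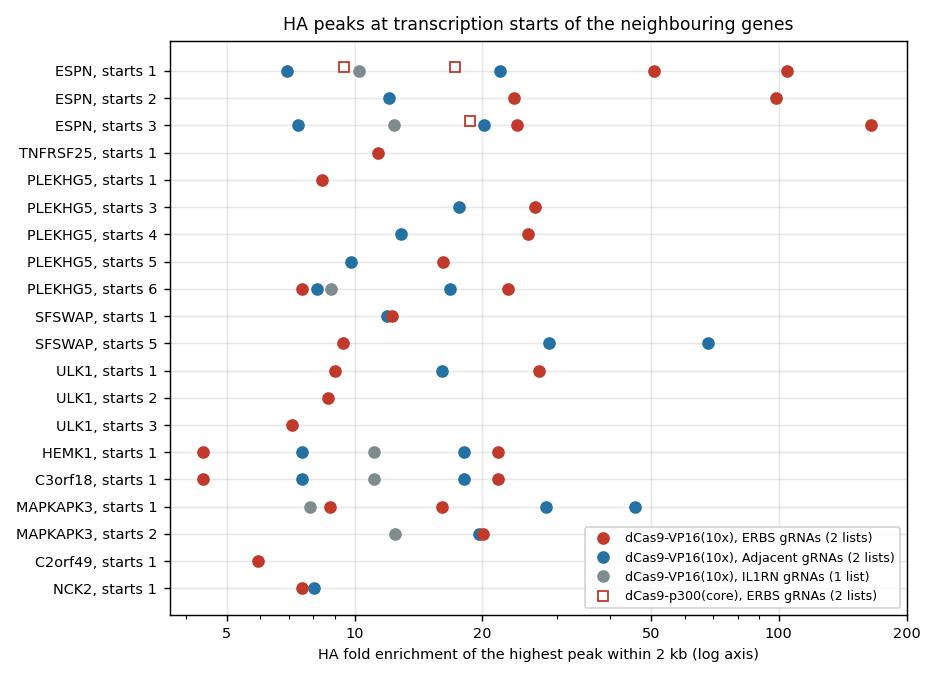
HA fold enrichment (x axis, logarithmic) of the highest peak within 2 kb of each group of starts (y axis), 1 point per library that listed a peak, with gRNA pools by colour and dCas9-p300(core) as open squares. The dCas9-VP16(10x) ERBS points lie farthest right at 3 groups of ESPN starts (up to 165) and Adjacent points at SFSWAP starts 5 (28.7 and 68.3) and MAPKAPK3 starts 1 (28.2 and 45.9).

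Nearly all of these genes carried RNAPII at a start in every library, whatever the gRNAs. ESPN, TNFRSF25, PLEKHG5, SFSWAP, ULK1, HEMK1, C3orf18 and C2orf49 had an RNAPII peak in 20 of 20 libraries, MAPKAPK3 in 19 and NCK2 in 12. H3K27ac was patchier, with peaks in 19 of 20 libraries at ESPN, 15 at ULK1, 14 at SFSWAP, 13 at MAPKAPK3 and C2orf49, 12 at PLEKHG5, HEMK1 and C3orf18, 10 at NCK2 and 4 at TNFRSF25. TNFRSF25 was the extreme case, since it had RNAPII in every library (7.97 to 29.6, median 14.9) but H3K27ac in only 1 dCas9-VP16(10x) library (3.93) and 3 dCas9-p300(core) libraries (14.4, 14.4 and 15). Its window overlaps that of the last ESPN start, so some peaks count for both.

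**Figure D2:**
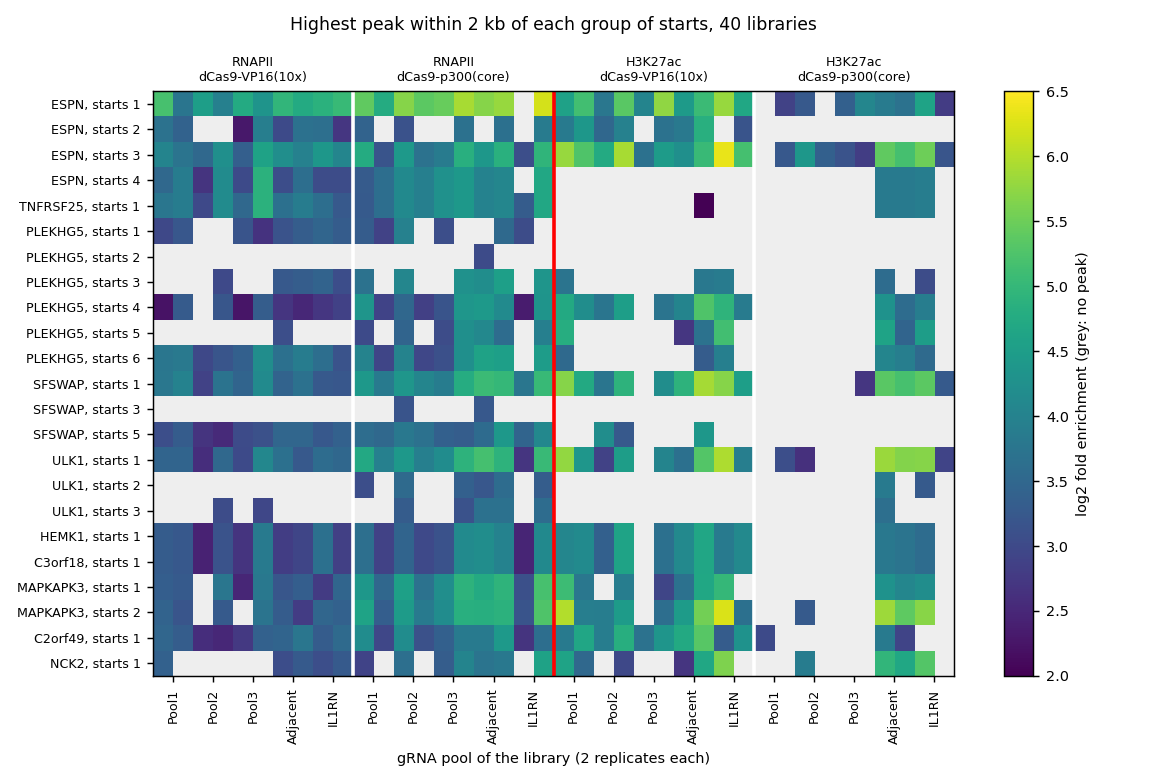
Log2 fold enrichment of the highest peak (colour) for each group of starts (rows) in the 40 RNAPII and H3K27ac libraries (columns, ordered by antibody, construct and pool), with groups that never had a peak left out and grey for no peak. RNAPII rows are filled for most genes in every pool, whereas H3K27ac of dCas9-p300(core) is grey outside the Adjacent libraries and IL1RN replicate 1 for most rows.

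To compare libraries, enrichment was put on a log2 scale and centred on each library's median over genes with a peak in all 20 libraries of the antibody, 718 genes for H3K27ac and 12190 for RNAPII. On this scale ESPN had the most RNAPII, with a lowest, median and highest level of -0.48, 0.93 and 1.31 over 20 libraries, and its mean stood above that of the next gene by 1.02, which is more than their pooled SD of 0.36. The order below it was SFSWAP (median -0.16), TNFRSF25 (-0.25), ULK1 (-0.28), MAPKAPK3 (-0.35), PLEKHG5 (-0.44), C2orf49 (-0.69), NCK2 (-0.89), and HEMK1 and C3orf18 with the same peaks (-0.996). With both constructs together, no neighbours in this part of the order differed by more than their pooled SD. The order differed by construct. TNFRSF25 ranked 2 with dCas9-VP16(10x) (median -0.12) and 5 with dCas9-p300(core) (-0.50), and ULK1 ranked 5 (-0.44) and 2 (-0.11). Within dCas9-p300(core), MAPKAPK3 stood above TNFRSF25 in the mean by 0.41 (pooled SD 0.33). The ESPN lead rests on its first window, which it shares with HES2, so these values are also those of the targeted gene. RNAPII enrichment there had a median of 32.9, against 17.7 at the ESPN starts beside HES2-3. At those starts the mean centred levels were -0.33 and -0.35 in the targeting and control libraries of dCas9-p300(core) and 0.15 and 0.24 in those of dCas9-VP16(10x).

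For H3K27ac with both constructs together, ESPN was again highest (median -0.10 over 19 libraries), followed by MAPKAPK3 (-0.37), SFSWAP (-0.44), ULK1 (-0.54), C2orf49 (-0.58), NCK2 (-0.93), PLEKHG5 (-1.05), HEMK1 and C3orf18 (-1.30) and TNFRSF25 (-1.96). ESPN stood above MAPKAPK3 in the mean by 0.55 (pooled SD 0.46), and TNFRSF25 below HEMK1 and C3orf18 by 0.88 (pooled SD 0.75). C2orf49 had the largest spread of the 10 genes, with an SD of 1.00. This order mixes constructs in unequal shares, such as 10 dCas9-VP16(10x) and 3 dCas9-p300(core) values for C2orf49, and 1 and 3 for TNFRSF25. Within dCas9-VP16(10x), ESPN (median -0.01) was followed by SFSWAP (-0.42), C2orf49 (-0.54) and MAPKAPK3 (-0.81). Within dCas9-p300(core), MAPKAPK3 (-0.18) had a higher median than ESPN (-0.25) and ULK1 (-0.26), and their means differed by less than the pooled SD. At the first ULK1 start, peak summits lay at a median of 1705 bp downstream for RNAPII (20 libraries) and 1833 bp for H3K27ac (15 libraries).

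**Figure D3:**
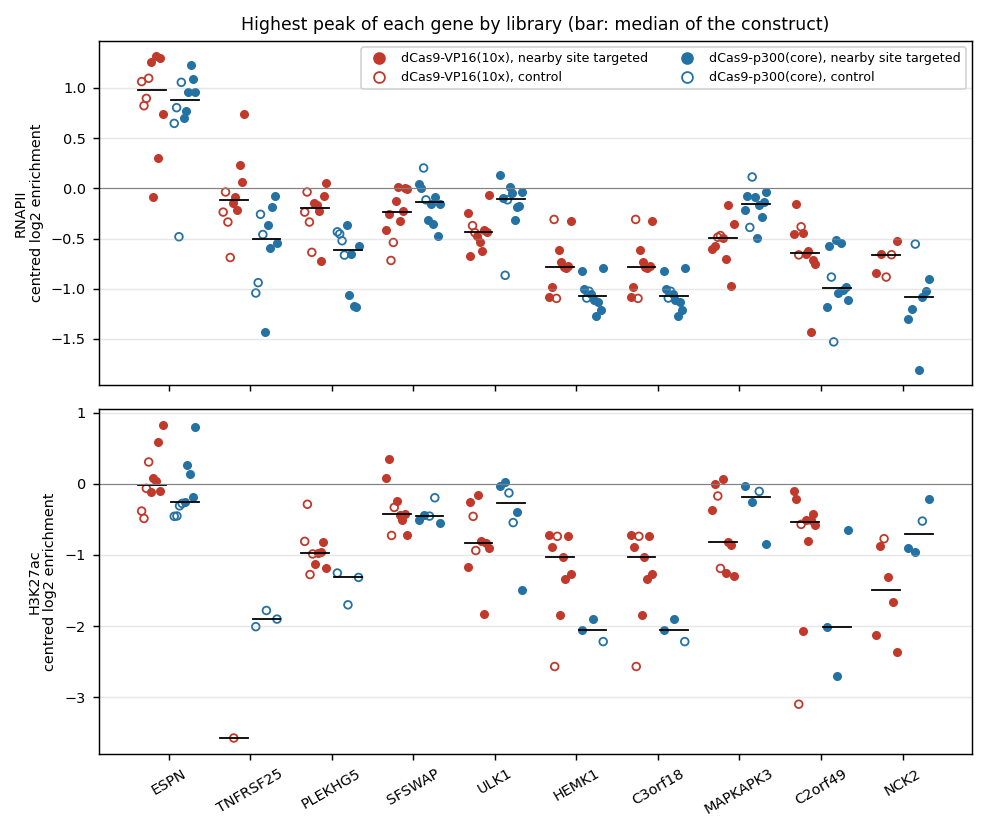
Centred log2 enrichment (y axis) of RNAPII (top) and H3K27ac (bottom) at the highest peak of each gene, 1 point per library, filled where gRNAs targeted a site at the gene's locus and open for controls, with a bar at the median of each construct. Filled and open points overlap at most genes, and ESPN lies highest for RNAPII.

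The main comparison asked whether libraries with gRNAs at a locus differed from the others at the neighbours of that locus. At the MMP17, CISH and FHL2 loci, the 8 libraries of Pools 1 to 3 and Adjacent were compared with the 2 IL1RN libraries of the construct, and at the HES2 locus, the 6 libraries of Pools 1 to 3 with the 4 of Adjacent and IL1RN. limma was fitted over all genes with a peak in at least 2 libraries on each side, with Benjamini-Hochberg adjustment over all of them. No member passed an adjusted p of 0.05 for either antibody or construct, and 2 had an unadjusted p under 0.05, both for RNAPII.

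For RNAPII with dCas9-VP16(10x), all 10 genes could be tested and none was called, against 0% of 17976 genes called in the IL1RN comparison (614 at an unadjusted p under 0.05) and 0.00559% of 17899 genes in the HES2 comparison (1534). SFSWAP came nearest. Its enrichment in the 8 targeting libraries ran from 7.39 over a median of 12.9 to 17.7, and the IL1RN libraries gave 9.52 and 10.6, so the uncentred values overlapped. The values above that median were at the first SFSWAP starts, 83588 bp from the centre of MMP17-A, since those at the start beside this site were lower. After centring, the difference was 0.46 on the log2 scale (SE 0.16, 95% confidence interval 0.12 to 0.80, unadjusted p = 0.00982, limma adjusted p = 0.998). The exact permutation test over the same libraries gave p = 0.0222, the lowest that 8 against 2 allows. TNFRSF25 differed by 0.42 (-0.06 to 0.90, limma adjusted p = 0.61), with 29.6 in Pool 3 replicate 2 as its highest value. The other 8 genes differed by -0.17 to 0.10, and every one of their intervals held 0.

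For RNAPII with dCas9-p300(core), 9 genes could be tested and none was called, against 0% of 13767 genes in the IL1RN comparison (617 at an unadjusted p under 0.05) and 0% of 20108 in the HES2 comparison (862). ULK1 had the lowest p. The 8 targeting libraries gave 15.4 to 35.9 with a median of 23.7, and the IL1RN libraries gave 6.49 and 32.9, on either side of that median. The centred difference was 0.40 (SE 0.18, 0.03 to 0.78, unadjusted p = 0.0374, limma adjusted p = 0.997). IL1RN replicate 1, which gave the low ULK1 value, also gave low values at ESPN (8.47 against 74.1 in replicate 2) and MAPKAPK3 (9.04 against 38.5). Without IL1RN replicate 2, the ULK1 difference was 0.78 and passed the threshold (limma adjusted p = 0.0421), while the fit called 650 genes in the IL1RN and HES2 comparisons together. That comparison had 8 libraries against 1 rather than at least 2 on each side, and the lone IL1RN library was assumed to vary like the other groups. ESPN differed by 0.45 (-0.10 to 1.00) and PLEKHG5 by -0.32 (-0.69 to 0.05), and NCK2 had too few peaks.

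The constructs were compared directly for each gene. The RNAPII difference of SFSWAP was larger with dCas9-VP16(10x) than with dCas9-p300(core) by 0.69 (unadjusted p = 0.00561), which did not hold after adjustment over 13689 genes (limma adjusted p = 0.912). No gene was called in this test for either antibody, with 645 and 1357 genes at an unadjusted p under 0.05 for RNAPII in the IL1RN and HES2 comparisons, and 4 and 351 for H3K27ac.

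For H3K27ac with dCas9-VP16(10x), 8 genes could be tested and none was called, against 0% of 12552 genes in the IL1RN comparison (477 at an unadjusted p under 0.05) and 0% of 16733 in the HES2 comparison (518). C2orf49 showed the largest difference. Its enrichment was 13 to 40.3 in the 8 targeting libraries (median 22.8) and 9.91 and 19.5 with IL1RN gRNAs, so the groups overlapped. The centred difference was 1.18 (SE 0.60, -0.08 to 2.44, limma adjusted p = 0.998). On this scale 1 IL1RN library lay at -3.10 and the mean of the 2 was -1.83. The other IL1RN library lay inside the range of the targeting libraries, -2.07 to -0.10. HEMK1 and C3orf18, which share their peaks, differed by 0.54 (-0.38 to 1.46), ESPN by 0.38 (-0.15 to 0.90) and SFSWAP by 0.26 (-0.41 to 0.92). PLEKHG5, ULK1 and MAPKAPK3 differed by -0.17 to 0.03. The median over all genes was -0.18 in the HES2 comparison.

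For H3K27ac with dCas9-p300(core), the shallow lists left 3 genes to test. None was called, against 0% of 3096 genes in the IL1RN comparison (18 at an unadjusted p under 0.05) and 2.08% of 5571 in the HES2 comparison, all 116 of them higher in the targeting libraries. ESPN had a peak in 5 of 6 targeting libraries (9.39 to 20.8, median 10.4) and in 4 of 4 controls (9.13 to 45.4, median 39.2). The uncentred values were thus lower in the targeting libraries, whereas the centred difference was 0.53 higher (-0.02 to 1.07, limma adjusted p = 0.274). HES2, which shares a window with ESPN, differed by 1.15 (limma adjusted p = 0.116). The direction at ESPN therefore depended on the centring, and the part of list depth in it was not tested. SFSWAP and ULK1 differed by -0.18 (-0.94 to 0.58) and -0.14 (-1.13 to 0.85).

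**Figure D4:**
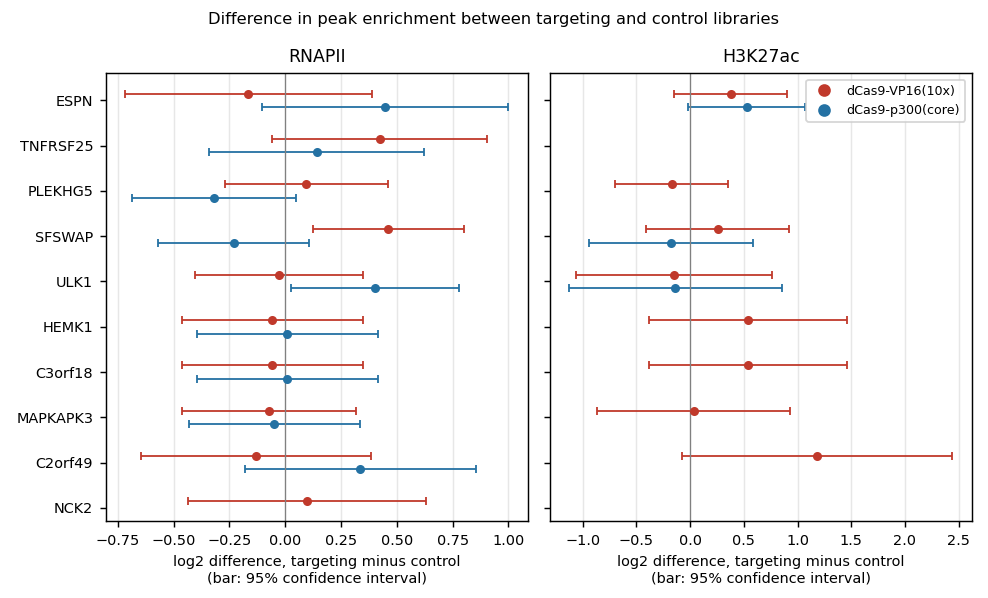
Log2 difference between targeting and control libraries (x axis, point) with its 95% confidence interval (bar) for each gene that could be tested (y axis), RNAPII at left and H3K27ac at right, by construct. The intervals of SFSWAP with dCas9-VP16(10x) (0.12 to 0.80) and ULK1 with dCas9-p300(core) (0.03 to 0.78) for RNAPII are those that leave out 0, before adjustment.

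The presence of a peak was also compared, since it does not depend on the scale. No member differed after adjustment in Fisher's exact test, against 0% of 19103 to 22562 genes called in every comparison. With 8 against 2 libraries this test cannot go below an unadjusted p of 0.0222, and in 1 such comparison the lowest p of any gene was 0.0667, so a call after adjustment over all genes was out of reach or nearly so. The lowest p was that of TNFRSF25 and PLEKHG5 for H3K27ac with dCas9-p300(core), where 0 of 6 targeting and 3 of 4 control libraries had a peak (Fisher's exact test p = 0.0333, adjusted p = 0.111). In that comparison 6045 of 19103 genes were at an unadjusted p under 0.05, and 22.1% of gene and library pairs had a peak in the targeting libraries against 70.3% in the controls. Without the shallow IL1RN replicate 2, both genes were called, as were 29.9% of 19090 genes in the same test. For the other members and comparisons, all unadjusted Fisher's exact p were 0.4 or more. The widest gaps there were those of SFSWAP with 3 of 8 targeting and 2 of 2 IL1RN libraries and ULK1 with 4 of 8 and 2 of 2, for H3K27ac with dCas9-p300(core), and NCK2 with 3 of 8 and 2 of 2, for RNAPII with dCas9-VP16(10x).

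Each gene was then compared between the pool with the site nearest to it and the other 8 libraries of the construct. No member was called in any of these tests, and 0% of genes were called in each. SFSWAP had the lowest p. Its H3K27ac enrichment with dCas9-VP16(10x) was 30.2 and 59.6 in the Adjacent libraries, against 18.4 to 51.4 in 7 other libraries that had a peak. The centred difference was 0.70 (SE 0.25, 0.17 to 1.22, unadjusted p = 0.0125, limma adjusted p = 0.429), beside a median of 0.30 over all 16693 genes in the same test, of which 1657 were at an unadjusted p under 0.05. In both Adjacent libraries this peak was at the first SFSWAP starts, 83588 bp from the centre of MMP17-A. C2orf49 differed by 0.91 (-0.34 to 2.16) and MAPKAPK3 by 0.60 (-0.21 to 1.41) in the same libraries. For RNAPII in these libraries, C2orf49 differed by 0.41 (-0.11 to 0.92), HEMK1 by -0.35 (-0.73 to 0.02) and SFSWAP by -0.09 (-0.49 to 0.31). C3orf18 has the same peaks as HEMK1 but was compared for another pool, Pool 3, which holds CISH-3. It differed there by 0.25 (-0.14 to 0.64).

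By group of starts, uncentred RNAPII at the SFSWAP start beside MMP17-A was 11.3 and 11.3 in the Adjacent libraries of dCas9-VP16(10x) and 5.83 to 10.6 in the other 8. How many of all 19628 groups of starts separate in this way was not counted, so the gap was not shown to be unusual. After centring, the difference was 0.35 (-0.25 to 0.96, limma adjusted p = 1.00), and 0% of 19628 groups of starts were called. H3K27ac was found there in 3 of 20 libraries, dCas9-VP16(10x) Pool 2 (18.4 and 9.57) and Adjacent replicate 2 (21). RNAPII at the first MAPKAPK3 starts was 9.26 and 10.2 in the Adjacent libraries, against 5.59 to 13.9 in 7 others, a difference of 0.00 (-0.45 to 0.46). The ESPN starts beside HES2-3 gave 16.4 and 13.3 in Pool 1, the pool that lists this site, against 10.3 to 24.3 elsewhere, a difference of -0.30 (-0.72 to 0.12).

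The authors' table of normalized signal holds 6 regions of 2000 bp that reach within 2 kb of a start in the set, and it measures all libraries whether or not a peak was called. In 24 exact permutation tests, two-sided, 20 compared the libraries with the region's gRNAs with the other libraries of the construct and antibody. The other 4 were of the CISH promoter, which no pool targets, and compared the 8 locus-targeting libraries with the 2 IL1RN libraries. Of the 24, 4 had p under 0.05, all with dCas9-VP16(10x) at MMP17-A and CISH-A. The lowest p that 2 against 8 libraries allow is 0.0222, and all 4 were at it. None held after adjustment over the 24 tests (smallest adjusted p 0.133). With 4 tests at their floor this adjustment cannot be passed, so it does not decide whether the regions differed.

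At CISH-A, 814 bp from the first MAPKAPK3 start, the Adjacent libraries of dCas9-VP16(10x) gave RNAPII signals of 0.406 and 0.479. The other 8 libraries ran from 0.12 to 0.282 with a median of 0.204, so that the groups did not overlap, and the ratio of means was 2.27 (exact permutation p = 0.0222). H3K27ac was 0.324 and 0.156 against 0.0126 to 0.108, a ratio of 4.05 (exact permutation p = 0.0222). The steps of the table correspond to 103 and 132 RNAPII reads in the Adjacent libraries and 19 to 54 in the others. For H3K27ac they correspond to 65 and 57 reads, against 1 to 30 in those others whose reads could be derived. At the CISH and MAPKAPK3 promoter itself, the next region, the ratios of the 8 targeting libraries to the IL1RN libraries were 0.837 to 1.06 for both constructs and antibodies, all with exact permutation p of 0.644 or more. The 2 regions overlap from 50648074 to 50648137.

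At MMP17-A, 393 bp from the last SFSWAP start, RNAPII was 0.71 and 0.864 in the Adjacent libraries of dCas9-VP16(10x) and 0.341 to 0.677 in the others (ratio 1.45, exact permutation p = 0.0222). H3K27ac was 0.215 and 0.391 against 0.0314 to 0.172 (ratio 2.81, exact permutation p = 0.0222). These H3K27ac signals correspond to 43 and 143 reads, against 4 to 34 in those others whose reads could be derived. Again the groups did not overlap. The peak names of some lists hold a run string (run_15977 or run_15968), whose meaning neither labels nor headers give. Permuting the labels only among libraries with the same string, those with none being treated as 1 group, was an alternative chosen after seeing the data and gave p = 0.04 for H3K27ac and p = 0.0476 for RNAPII at both regions, the lowest that each such exact permutation allows. The 4 results rest on 2 Adjacent libraries each, and leaving out either one leaves a design that cannot pass. With the IL1RN libraries as the only controls, none of 24 tests passed, since 2 against 2 cannot go below p = 0.333 in an exact permutation.

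With dCas9-p300(core), no difference at these 2 regions passed. RNAPII was 0.954 times and 0.873 times the mean of the other libraries at MMP17-A and CISH-A (exact permutation p = 0.778 and 0.756). H3K27ac was 0.471 and 0.475 times it (exact permutation p = 0.133 and 0.422), with Adjacent values inside the range of the others. Both Adjacent libraries carried run_15977. Against the 4 other libraries with that string, their mean H3K27ac was 0.172 against 0.239 at MMP17-A and 0.112 against 0.0719 at CISH-A, so the direction turned at CISH-A (exact permutation p = 0.467 and 0.267).

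At the 3 HES2 regions on ESPN starts, the libraries of the pool that lists each site did not stand above the others (ratios 0.519 to 1.29, all exact permutation p of 0.2 or more). In several combinations of region, antibody and construct the highest signals were in another pool, and 3 examples, chosen after their values were seen, follow. At HES2-1, RNAPII with dCas9-VP16(10x) was 2.5 and 1.81 in Pool 3 and 0.986 to 1.45 in all other libraries. At HES2-2, H3K27ac with dCas9-p300(core) was 0.619 and 1.65 in Pool 1 and 0.0852 to 0.549 in all other libraries. At HES2-3, RNAPII with dCas9-VP16(10x) was 1.86 and 2.73 in Pool 2, beside 2.22 in Pool 3 replicate 2 and 1.45 to 1.69 in the rest. The labels and the methods give the same pool lists, in which HES2-1, HES2-2 and HES2-3 belong to Pools 2, 3 and 1, so these values were left with the labels and whether the lists are right cannot be told from the labels.

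**Figure D5:**
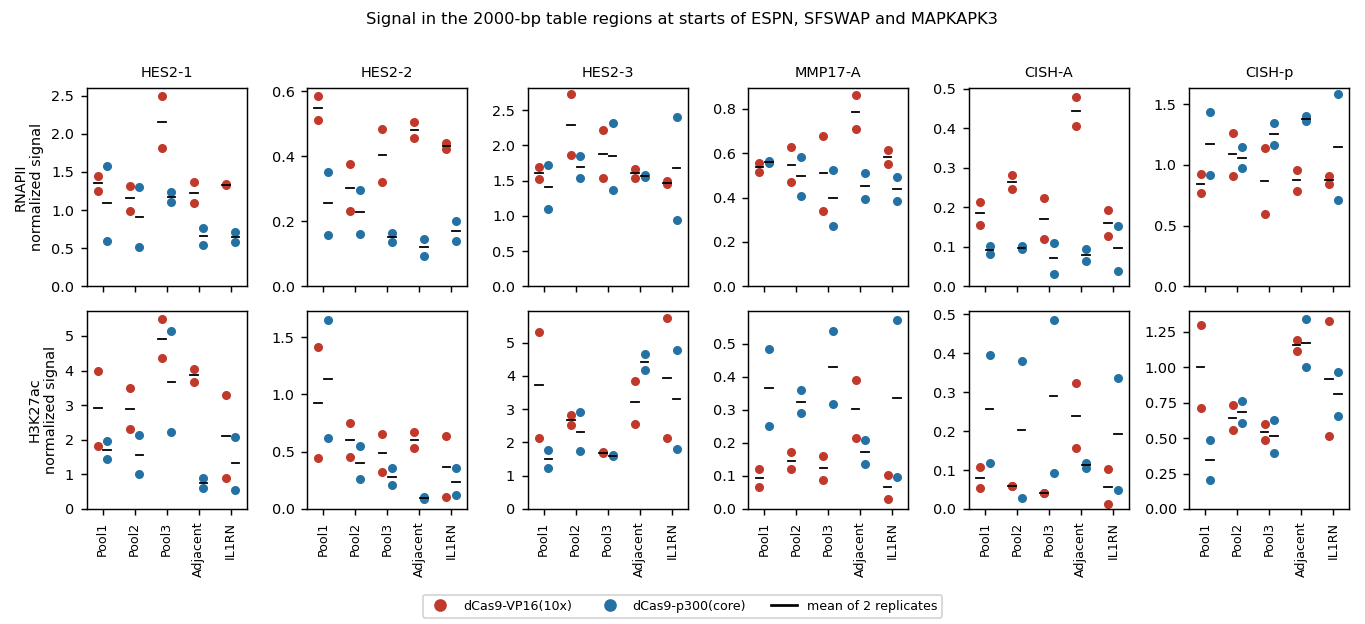
Authors' normalized signal (y axis, each panel from 0) of RNAPII (top) and H3K27ac (bottom) in 6 regions at starts of ESPN (HES2-1 to HES2-3), SFSWAP (MMP17-A) and MAPKAPK3 (CISH-A and CISH-p, the CISH promoter) by gRNA pool (x axis), 1 point per library and a bar at the mean of 2 replicates. With dCas9-VP16(10x), the Adjacent pair lies above all others at MMP17-A and CISH-A and within them at CISH-p.

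The wider neighbourhood was described in the same way. Of 34 other protein-coding genes with a start within 250 kb of a targeted site, 26 could be tested for H3K27ac and 26 for RNAPII with dCas9-VP16(10x), and 4 and 26 with dCas9-p300(core). None was called by limma, and 3 had an unadjusted p under 0.05, all for RNAPII with dCas9-VP16(10x) at the HES2 locus, where 8.57% of all 17899 genes did. DNAJC11, a protein of the mitochondrial inner membrane organizing system, differed by -0.70 (limma adjusted p = 0.463), the RING finger gene RNF207 by -0.36 (adjusted p = 0.541) and ACOT7, an acyl-CoA thioesterase gene, by -0.36 (adjusted p = 0.561). The median over the 26 was -0.15.

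The gene whose RNAPII level followed each member most closely over the 20 libraries was sought among 8853 protein-coding genes with a peak in all of them, as a description. It was YWHAH for ESPN (Pearson's r 0.92), POLA2 for TNFRSF25 (0.85), AP3B1 for PLEKHG5 (0.82), IGFLR1 for SFSWAP (0.77), BRMS1L for ULK1 (0.88), NUP37 for HEMK1 and C3orf18 (0.87) and AAR2 for C2orf49 (0.89). None of the 7 lies on the chromosome of its member. MAPKAPK3 and NCK2 lacked a peak in some library and were left out. Depth varied between the libraries, and the highest of 8853 coefficients is high by selection.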

How the data were processed

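ChIP-seq of HA, H3K27ac and RNAPII from Ishikawa cells was analysed from 47 peak lists and 1 table of signal in 23 regions. The authors aligned reads to hg19 with Bowtie 1.1.2, removed duplicates with SAMtools and called peaks per library with MACS2 2.1.0.20140616. The deposited lists give each peak's fold enrichment, a ratio over background, and the -log10 of its p-value and q-value. The table's normalized signal was made by the authors from bedtools counts divided by total depth, then by the average depth in overlapping peaks (H3K27ac, RNAPII) or by control promoters (HA). In 44 of 47 columns the values were whole multiples (within 0.02) of the smallest step, and these steps were taken as reads.

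The highest peak within 2 kb of any GENCODE hg19 start was taken per gene and library. Log2 enrichment was centred on the median of genes with a peak in every library of the antibody, and limma 3.58.1 (R 4.3.3) was fitted over all genes with a peak in at least 2 libraries on each side, with Benjamini-Hochberg adjustment and a threshold of 0.05. A library without a peak was left out of that gene's fit. Presence of a peak was compared by Fisher's exact test, and table regions by exact permutation, with scipy 1.17.1 (Python 3.11.15). Intervals are 95% and cover the spread between libraries. On simulated data for the IL1RN comparison, RNAPII changes of 1 on the log2 scale were recovered in 35.3% (dCas9-VP16(10x)) and 45.6% (dCas9-p300(core)) of genes, and those of H3K27ac in 0%. At a change of 2 they were recovered in 91.2% and 92.4% for RNAPII and in 62.2% and 68.4% for H3K27ac.

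The members, gene lists and pool alternatives were chosen with earlier results of these data known. Named genes were the 10 members, the 4 genes for which the sites are named, genes within 250 kb that passed the threshold (and, where none did, the 3 at an unadjusted p under 0.05, chosen after their values were seen), and the gene most correlated with each member. Groups and pools followed the labels. One marker gene of another cell type is not reported here.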

Additional observations from a re-analysis of the deposited data

Results flagged for a closer look

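In 5 of 63 groups of 4 to 10 libraries, 1 library lay far from the rest, which chance gives in about 1 of 20 groups (Dixon's test). For C2orf49 with dCas9-VP16(10x), centred log2 H3K27ac enrichment was -2.07 in Pool 1 replicate 1 and -0.80 to -0.10 in the other targeting libraries, and RNAPII was -1.44 in Pool 2 replicate 2 and -0.75 to -0.16 in the others. For PLEKHG5 with dCas9-VP16(10x), RNAPII was -0.73 in Pool 2 replicate 2 and -0.23 to 0.05 in the others. In the signal table, H3K27ac with dCas9-p300(core) at HES2-1 was 5.15 in Pool 3 replicate 2 and 0.541 to 2.21 in the other libraries that by label lack that site's gRNAs. At HES2-2 it was 1.65 in Pool 1 replicate 2 and 0.0852 to 0.619 in the others. In both regions the highest of the others was replicate 1 of the same pool (2.21 and 0.619). These groups rest on the labelled pool lists, and whether the lists are right cannot be told from the labels.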

How the results depend on the processing

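No member was called under the other windows, peak thresholds, scalings, fits or control sets tried with limma. The exceptions came from the exact permutation test without adjustment, which counted 1 of the members called, H3K27ac, dCas9-p300(core) (ESPN, exact permutation p = 0.0397) and 1 of the members called, RNAPII, dCas9-VP16(10x) (SFSWAP, exact permutation p = 0.0222), and from leaving out a library. Leaving out each library gave 0 to 1 member called for RNAPII with dCas9-p300(core) (1 without IL1RN replicate 2), 0 to 2 in peak presence for H3K27ac with dCas9-p300(core) (2 without IL1RN replicate 2, beside 29.9% of all 19090 genes), 2 to 4 table regions at p under 0.05 (2 without either Adjacent library of dCas9-VP16(10x), for each antibody), and 0 to 0 in every other count. With IL1RN libraries as the only controls, 0 of 24 table tests passed.

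With the other pool lists for FHL2 and HES2 sites, which an earlier analysis matched to these signals and which are not independent of them, 8 of 24 table tests had p under 0.05. The signal difference at HES2-1, H3K27ac, dCas9-p300(core) turned to 2.34, the signal difference at HES2-1, RNAPII, dCas9-VP16(10x) to 0.889, the signal difference at HES2-2, H3K27ac, dCas9-p300(core) to 0.880 and the signal difference at HES2-3, RNAPII, dCas9-VP16(10x) to 0.653. The cause was not tested.

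Replicate numbers did not pair the libraries throughout. For H3K27ac, same-numbered libraries correlated above 0.1 in 6 of 10 pairs of pools and under -0.1 in 4, with each construct. For RNAPII they correlated above 0.1 in 3 of 10 pairs with each construct. The H3K27ac lists of Pools 1 to 3 and IL1RN carried run_15977 in replicate 1 and no string in replicate 2, which the Adjacent lists did not follow. The main fit held neither the replicate number nor the run string. With the replicate block, 0 members were called, and it changed no other member's call. Among members called, H3K27ac, dCas9-p300(core), the count over all genes in the IL1RN and HES2 comparisons together was 116, and it was 4043 with no centring, 731 with quantile normalization, 491 with libraries of the construct alone, 370 with the run string of the peak names as a block (lists with none as 1 group), 223 within 5 kb, 220 with the replicate block, 304 with libraries without a peak set to their lowest enrichment, 176 with -log10 q, and 0 with IL1RN as the only control or without the lists under 6000 peaks. Under these settings it was 0 to 5 beside members called, RNAPII, dCas9-VP16(10x) (1 as reported) and 0 to 1 beside members called, RNAPII, dCas9-p300(core) (0 as reported). Leaving out each library moved the gene count over 0 to 314 beside members called, H3K27ac, dCas9-VP16(10x), 0 to 424 for dCas9-p300(core), and 0 to 3 and 0 to 650 for RNAPII. The log2 difference of ESPN, H3K27ac, dCas9-p300(core) was -1.13 with no centring and 0.53 with it. For H3K27ac, genes with a peak in every library gave no value, as no member had one. The alternatives chosen after seeing the data were leaving out libraries for presence and table tests, permuting within run strings, fitting groups of starts, and leaving out the H3K27ac lists under 6000 peaks or the library with the other construct's letter.

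Of 1037 log2 differences of single members under these settings, 60 had the other sign, none of them called. With the shallow H3K27ac lists of dCas9-p300(core), 7 of 10 genes could not be tested.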
